A study of Oryza sativa with 16 samples.

Results

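The 6 genes described here are nitrate transporter genes of rice that belong, by symbol or annotation, to the low-affinity nitrate and peptide transporters: NRT1.1B (Os10g0554200), OsNPF7.2 (Os02g0699000), OsNRT1.2 (Os06g0581000), OsMFS1 (Os03g0682100), and Os10g0111300 and Os10g0370700, which have no symbol. They were picked by gene identifier out of 37849 annotated genes and followed in all 16 RNA-seq libraries. All but NRT1.1B stand in the study's own list of nitrogen transporter genes that changed under stress in these same libraries, so their stress comparisons are not independent evidence. The list was drawn up from stress against control within each genotype and tissue, so for these 5 genes differences of the stress response between genotypes or between tissues are not independent evidence either. NRT1.1B is not on that list, but all 6 genes were chosen with earlier results of these data known. The comparisons of NRT1.1B are thus not independent evidence either.

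The libraries came from roots and shoots of seedlings of N22 (Nagina 22, an aus rice) and IR64 (an indica rice), grown in pots of vermiculite and perlite with Yoshida nutrients and ammonium nitrate as the sole nitrogen supply. Each genotype and tissue was sampled under low nitrogen with full water (N-W+), full nitrogen with low water (N+W-), both low (N-W-) and both full (N+W+, the control). Each of these combinations is 1 library of RNA pooled from replicate plants, so differences between plants within a treatment cannot be seen. By the sample descriptions the well-watered plants were 15 days old and the water-stressed plants 21 days old at sampling, and if so water supply and age cannot be told apart, whereas the study's methods give 21 days of growth for all. The nitrogen concentrations given with the samples and those in the study's methods differ, the samples' text giving the higher one to the stressed plants and the methods giving the lower one to the N- plants, and N- and N+ are used here as the sample names and the methods give them.

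The NRT1/PTR family (NPF) holds membrane proteins that move nitrate, small peptides, and in some members hormones or other metabolites into cells together with protons. Low-affinity nitrate transport serves when soil nitrate is plentiful, while the separate NRT2 family works at scarce nitrate. Members of the family act at different points: uptake at the root surface, storage in the vacuole, loading into and unloading from the xylem, and remobilisation in leaves.

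NRT1.1B lies on chromosome 10 from 21757771 to 21762202 on the minus strand of IRGSP-1.0 with 6 exons, and encodes a plasma membrane nitrate transporter known for contributing to nitrate use differences between indica and japonica rice. OsNPF7.2 lies on chromosome 2 from 28749597 to 28752795 on the plus strand with 3 exons, and encodes a transporter of the vacuolar membrane. OsNRT1.2, on chromosome 6 from 22655734 to 22664963 on the minus strand with 4 exons, is annotated as similar to a nitrate transporter called NTL1. The other 3 genes are known only by similarity. Os10g0111300 (chromosome 10, 787911 to 791157, minus strand, 5 exons) and Os10g0370700 (chromosome 10, 11691235 to 11695039, minus strand, 5 exons) resemble nitrate transporters, and OsMFS1 (chromosome 3, 27143712 to 27145616, minus strand, 1 exon) resembles a nitrate and chloride transporter. The reads of the 6 genes differed in how far they could be placed. Of the exon reads summed over all libraries, 100% were unique to the gene for NRT1.1B and OsMFS1, 68.4% for OsNPF7.2, 34.4% for Os10g0111300, 27% for Os10g0370700 and 12.2% for OsNRT1.2. The values of OsNRT1.2 and of both genes without a symbol are therefore uncertain, since the counting could have shared reads between near-identical copies.

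Total exon reads ranged from 8272195 to 13675454 per root library and from 2420338 to 11379518 per shoot library, the shallowest being N22 shoots at N-W+. Counts were scaled to CPM (reads scaled to a common library size) with TMM factors within a tissue, which were 0.906 to 1.165 in roots and 0.665 (IR64 shoots at N+W+) to 1.34 (N22 shoots at N-W+) in shoots. The tissue labels held: 3 root markers (RCc3, Lsi1, Lsi2) summed to 1235 to 4634 TPM (a level per transcript length) in roots and 5.68 to 34 TPM in shoots, and 4 photosynthesis genes (CAB1R, both RBCS genes, PsbO) summed to 2.34 to 48.6 TPM in roots and 9848 to 63050 TPM in shoots. The photosynthesis genes summed to 9848 to 26650 TPM in the low nitrogen shoots and to 34490 to 63050 TPM in the high nitrogen shoots, with no overlap, and the root markers to 1235 to 1857 TPM in the low nitrogen roots and 1588 to 4634 TPM in the high nitrogen roots, with overlap. In whole tissue, fewer cells of a type and less RNA per cell cannot be told apart, and the part of these shifts in the nitrogen results was not tested.

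The 6 genes spanned a wide range of levels. In roots NRT1.1B had the highest median, 255 TPM with a range of 19.7 to 619 TPM over the 8 libraries, followed by OsNPF7.2 at 85.1 TPM (41.3 to 106), OsMFS1 at 12.3 TPM (1.73 to 42.7), OsNRT1.2 at 6.91 TPM (2.66 to 16.9), Os10g0111300 at 3.11 TPM (1.81 to 6.33) and Os10g0370700 at 0.0579 TPM (0 to 0.857). Each neighbouring pair in this order overlapped in range except Os10g0111300 with Os10g0370700. In shoots NRT1.1B again led, with a median of 91.2 TPM (51.4 to 359), followed by Os10g0111300 at 27.8 TPM (14.4 to 92.3), OsNRT1.2 at 12.1 TPM (3.23 to 22.2), OsMFS1 at 5.82 TPM (1.73 to 18.0), OsNPF7.2 at 4.57 TPM (0.565 to 21.7) and Os10g0370700 at 1.15 TPM (0.367 to 3.12). All neighbouring ranges overlapped in shoots. OsNPF7.2 and Os10g0111300 changed places the most, OsNPF7.2 standing next to the top in roots and next to the bottom in shoots and Os10g0111300 the other way round.

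**Figure D1:**
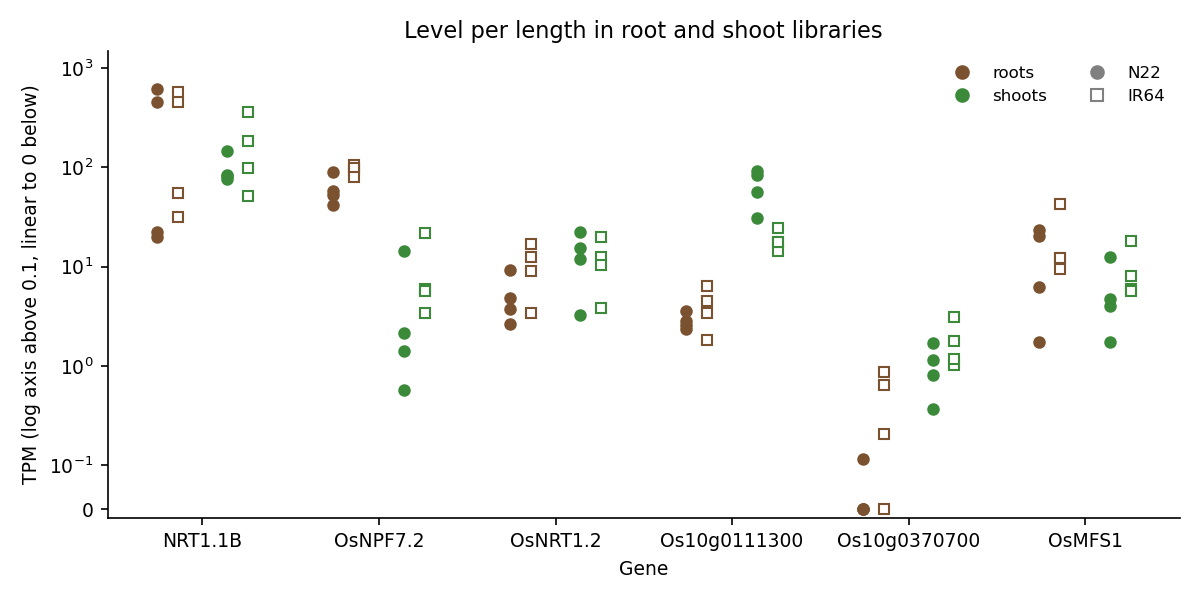
Level per length (TPM, logarithmic above 0.1 and linear below) of the 6 genes in each of the 16 libraries, with root libraries in brown to the left of shoot libraries in green, and N22 as filled circles beside IR64 as open squares. OsNPF7.2 lay higher in every root library and Os10g0111300 higher in every shoot library, while NRT1.1B spread over both tissues.

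Roots were compared with shoots of the same genotype and treatment with edgeR's quasi-likelihood test over all 16 libraries, with p adjusted by the Benjamini-Hochberg method over 21692 genes and called below 0.05. Here and below, adjusted p refers to this kind of test, a log2 difference is on the scale of the fitted counts, and its error is a standard error (SE) derived from the test statistic. In this comparison 3 of the 6 genes passed, against 43.4% of all genes tested, so passing was common. OsNPF7.2, the vacuolar transporter, was higher in roots by 3.76 ± 0.54 on the log2 scale (adjusted p = 0.000291). Its levels in roots (41.3 to 106 TPM) did not overlap those in shoots (0.565 to 21.7 TPM). Os10g0111300 was lower in roots by the same order of size, with a log2 difference of -3.77 ± 0.50 (adjusted p = 0.000172) and no overlap between roots (1.81 to 6.33 TPM) and shoots (14.4 to 92.3 TPM). The share of all genes without overlap between roots and shoots was not computed. Os10g0370700 was also lower in roots (-3.83 ± 0.83, adjusted p = 0.00367), although its root libraries held at most 19 reads. It was not fitted on unique exon reads in any comparison, so what shared reads add to its calls was not tested. Its unique reads, unscaled, numbered 18 over the root and 51 over the shoot libraries. In IR64 they were more in roots at N-W+ (8 against 1) and at N+W- (7 against 6), and in no other pair. These 3 calls held when each library was left out in turn, with adjusted p no higher than 0.0134. OsMFS1 (0.53 ± 0.44, adjusted p = 0.363), OsNRT1.2 (-1.20 ± 0.71, adjusted p = 0.197) and NRT1.1B (-0.32 ± 0.67, adjusted p = 0.725) did not pass. The median log2 difference over the 6 genes was -0.76, against 0.08 over all genes.

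NRT1.1B in roots had the steepest nitrogen response of the 6 genes. In N22 roots it had 39.8 CPM at N-W+, 1018 CPM at N+W- and 32.8 CPM at N-W-, against 858 CPM at N+W+. In IR64 roots it had 47.1 CPM at N-W+, 834 CPM at N+W- and 99.7 CPM at N-W-, against 854 CPM at N+W+. The 4 low nitrogen libraries (54.8 ± 30.5 CPM, SD, n = 4) thus lay far below the 4 high nitrogen libraries (891 ± 85.3 CPM, SD, n = 4), with no overlap and with both genotypes alike at N+W+. In the fit with genotype and treatment as terms, where the genotypes stand in for replicates, NRT1.1B fell by 4.12 ± 0.35 on the log2 scale, 17.3-fold, at low against high nitrogen (adjusted p = 0.00135). It fell by 4.32 ± 0.50 at N-W+ (adjusted p = 0.00908) and by 3.78 ± 0.49 at N-W- (adjusted p = 0.0174) against N+W+. The call at low against high nitrogen held with any library left out (adjusted p at most 0.0117). The N-W+ call was lost without IR64 N-W+ (-4.23, adjusted p = 0.0855), without N22 N+W+ (-4.05, adjusted p = 0.0716) or without N22 N-W+ (-4.41, adjusted p = 0.0695), and the N-W- call without IR64 N+W+ (-4.05, adjusted p = 0.0880) or N22 N+W+ (-3.54, adjusted p = 0.103). Since every read of NRT1.1B was unique, none of this rests on shared reads.

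**Figure D2:**
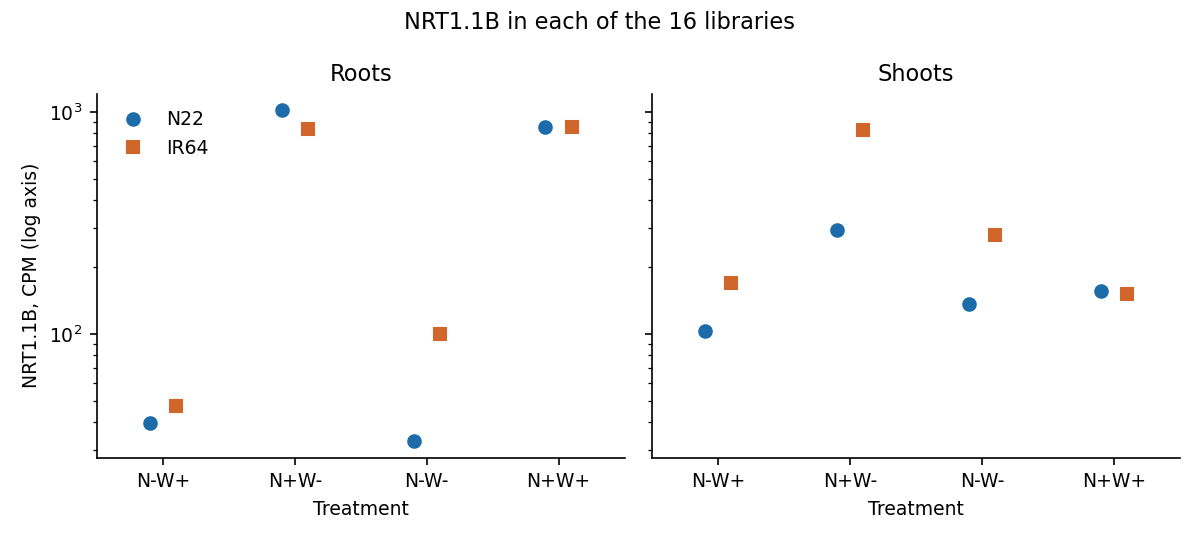
TMM-scaled CPM of NRT1.1B on a logarithmic axis in each of the 16 libraries, roots left and shoots right, by treatment with the N+W+ control last, N22 as blue circles and IR64 as orange squares. The 4 low nitrogen root libraries sat between 32.8 and 99.7 CPM and the 4 high nitrogen ones between 834 and 1018 CPM, and in shoots the highest point was IR64 at N+W- with 828 CPM.

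The shoot pattern of NRT1.1B was another one. N22 shoots had 103 CPM at N-W+, 292.5 CPM at N+W- and 136 CPM at N-W-, against 156 CPM at N+W+. IR64 shoots had 169 CPM at N-W+, 828 CPM at N+W- and 278 CPM at N-W-, against 151 CPM at N+W+. The low water library with full nitrogen was the highest in both genotypes, and the low nitrogen libraries (103 to 278 CPM) overlapped the high nitrogen ones (151 to 828 CPM). At N+W- the log2 difference from N+W+ was 1.66 ± 0.46 and did not pass (adjusted p = 0.302, and 0.0111 by DESeq2), and at low against high nitrogen it was -0.83 ± 0.31 (adjusted p = 0.108, and 0.0412 by DESeq2). The nitrogen response differed between roots and shoots by its own test, with a difference of -3.27 ± 0.55 on the log2 scale (adjusted p = 0.0163), where the median of all genes was 0.16. The order of the tissues turned with nitrogen. On a scale shared by all 16 libraries, root minus shoot was 2.15 in N22 and 2.18 in IR64 at N+W+, but -1.46 in N22 and -2.06 in IR64 at N-W+, and -2.32 in N22 and -1.70 in IR64 at N-W- (log2, 1 library a side). At N+W- the genotypes parted, with 1.48 in N22 and -0.33 in IR64.

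OsNPF7.2 had its highest level at N+W+ in the roots of both genotypes. N22 roots had 76.8 CPM at N-W+, 77.3 CPM at N+W- and 55.6 CPM at N-W-, against 135 CPM at N+W+. IR64 roots had 117.1 CPM at N-W+, 116.9 CPM at N+W- and 117.3 CPM at N-W-, against 161 CPM at N+W+. All 3 stresses were below the control in both genotypes, but the log2 differences of -0.65 ± 0.26 at N-W+, -0.64 ± 0.26 at N+W- and -0.86 ± 0.26 at N-W- did not pass (adjusted p = 0.24, 0.651 and 0.182). N22 shoots held 5 reads (1.54 CPM) at N-W+, 22 reads (3.44 CPM) at N+W- and 8 reads (0.748 CPM) at N-W-, against 150 reads (22.4 CPM) at N+W+. IR64 shoots held 47 reads (7.87 CPM) at N-W+, 373 reads (40.4 CPM) at N+W- and 37 reads (4.15 CPM) at N-W-, against 89 reads (14.1 CPM) at N+W+. All 3 stresses were thus below the control in N22 shoots, while in IR64 shoots the low water library was above it. At low against high nitrogen OsNPF7.2 fell by 2.83 ± 0.68 in shoots (adjusted p = 0.0326), the low nitrogen shoots (0.748 to 7.87 CPM) overlapping the high nitrogen ones (3.44 to 40.4 CPM). The call was lost with library totals as the scale (-2.41, adjusted p = 0.0564) and without IR64 N+W- (-1.93, adjusted p = 0.190), IR64 N-W+ (-3.01, adjusted p = 0.0826), IR64 N-W- (-3.03, adjusted p = 0.112), N22 N-W+ (-2.71, adjusted p = 0.126) or N22 N-W- (-2.64, adjusted p = 0.0880). Neither single contrast passed, with -2.74 ± 1.01 at N-W+ (adjusted p = 0.115) and -3.72 ± 1.02 at N-W- (adjusted p = 0.0752), though both passed by DESeq2 (adjusted p = 0.0229 and 0.00123).

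OsNRT1.2 differed in its nitrogen response between the tissues. N22 shoots had 3.70 CPM at N-W+, 20.3 CPM at N+W- and 21.3 CPM at N-W-, against 36.5 CPM at N+W+. IR64 shoots had 5.52 CPM at N-W+, 38.8 CPM at N+W- and 13.4 CPM at N-W-, against 31.0 CPM at N+W+. N-W+ was the lowest shoot library in both genotypes. In shoots OsNRT1.2 fell by 2.86 ± 0.50 at N-W+ (adjusted p = 0.0205) and by 1.80 ± 0.34 at low against high nitrogen (adjusted p = 0.0143), while N-W- did not pass (-0.95 ± 0.45, adjusted p = 0.242). The N-W+ call was lost without IR64 N+W+ (-3.12, adjusted p = 0.0759), N22 N+W+ (-2.63, adjusted p = 0.0797) or N22 N-W+ (-2.61, adjusted p = 0.120), and the low nitrogen call without IR64 N+W- (-1.49, adjusted p = 0.0701), N22 N+W+ (-1.66, adjusted p = 0.0537) or N22 N-W+ (-1.69, adjusted p = 0.0523). In roots the difference at low against high nitrogen had the opposite sign but was not called, and N-W- against N+W+ gave 0.04 ± 0.39 (adjusted p = 0.981). N22 roots had 14.3 CPM at N-W+, 3.73 CPM at N+W- and 5.30 CPM at N-W-, against 7.74 CPM at N+W+. IR64 roots had 21.6 CPM at N-W+, 4.22 CPM at N+W- and 19.2 CPM at N-W-, against 14.4 CPM at N+W+. Low against high nitrogen in roots gave 1.09 ± 0.28 and missed the threshold (adjusted p = 0.0596, 0.0211 by DESeq2 and 0.0197 without N22 N-W-), and the low nitrogen roots (5.30 to 21.6 CPM) overlapped the high nitrogen roots (3.73 to 14.4 CPM). The difference of the nitrogen response between roots and shoots was 2.99 ± 0.63 (adjusted p = 0.0331), against a median of 0.16 over all genes. On unique exon reads alone, which were 12.2% of its reads, the shoot differences were -2.38 ± 0.70 at N-W+ (adjusted p = 0.0489) and -1.54 ± 0.46 at low nitrogen (adjusted p = 0.0426), and the tissue difference was 2.79 ± 0.66 (adjusted p = 0.0326). These fits rest on few reads, since the N-W+ shoots held 2 unique reads in N22 and 5 in IR64, against 27 and 24 at N+W+.

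Os10g0111300, a gene of shoots, was lowest there at N-W+ in both genotypes. N22 shoots had 32.7 CPM at N-W+, 89.0 CPM at N+W- and 108 CPM at N-W-, against 139 CPM at N+W+. IR64 shoots had 19.3 CPM at N-W+, 31.8 CPM at N+W- and 21.0 CPM at N-W-, against 56.4 CPM at N+W+. The gene fell by 1.78 ± 0.44 at N-W+ (adjusted p = 0.0417), but not past the threshold at N-W- (-0.82 ± 0.42, adjusted p = 0.279) or at low against high nitrogen (-0.93 ± 0.30, adjusted p = 0.0705), which passed by DESeq2 (adjusted p = 0.0233) and without IR64 N-W+ (adjusted p = 0.0497) or N22 N-W- (adjusted p = 0.0199). The N-W+ call was lost with library totals (-1.23, adjusted p = 0.0742) and without IR64 N+W+ (-1.66, adjusted p = 0.200), IR64 N+W- (-1.79, adjusted p = 0.0849), N22 N+W+ (-1.90, adjusted p = 0.118), N22 N-W+ (-1.35, adjusted p = 0.228) or N22 N+W- (-1.79, adjusted p = 0.0837). In roots it had 2.66 to 7.28 CPM, and none of its stress contrasts passed there.

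Os10g0370700 was barely detected in roots. N22 roots held 0 reads at N-W+ and N+W-, 2 reads at N-W- and 0 at N+W+, and IR64 roots held 18 reads at N-W+, 19 at N+W-, 0 at N-W- and 4 at N+W+. A library with 0 reads still allows up to 3 reads, which is 0.262 to 0.309 CPM in the 4 root libraries concerned, so its fitted root differences between treatments are not described singly, although they enter the root counts and medians of the 6 genes. N22 shoots held 2 reads (0.617 CPM) at N-W+, 13 reads (2.03 CPM) at N+W- and 25 reads (2.34 CPM) at N-W-, against 27 reads (4.04 CPM) at N+W+. IR64 shoots held 13 reads (2.18 CPM) at N-W+, 31 reads (3.36 CPM) at N+W- and 30 reads (3.37 CPM) at N-W-, against 72 reads (11.4 CPM) at N+W+. The control was the highest and N-W+ the lowest in both genotypes. In shoots the gene fell by 2.41 ± 0.59 at N-W+ (adjusted p = 0.0421), a call lost with library totals (-1.85, adjusted p = 0.0722) and without IR64 N+W+ (-2.05, adjusted p = 0.238), IR64 N-W+ (-3.01, adjusted p = 0.103), IR64 N+W- (-2.43, adjusted p = 0.0759), N22 N+W+ (-2.66, adjusted p = 0.0955), N22 N-W+ (-2.13, adjusted p = 0.207) or N22 N+W- (-2.42, adjusted p = 0.0743).

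OsMFS1, with all its reads unique, passed in 3 contrasts in shoots. N22 shoots had 1.85 CPM at N-W+, 7.51 CPM at N+W- and 5.24 CPM at N-W-, against 19.0 CPM at N+W+. IR64 shoots had 8.04 CPM at N-W+, 14.7 CPM at N+W- and 6.84 CPM at N-W-, against 41.9 CPM at N+W+. The control shoot was the highest library in both genotypes. OsMFS1 fell in shoots by 2.69 ± 0.48 at N-W+ (adjusted p = 0.0209), by 2.20 ± 0.45 at N-W- (adjusted p = 0.0360) and by 1.73 ± 0.32 at low against high nitrogen (adjusted p = 0.0144). The N-W+ call was lost without IR64 N+W+ (-2.65, adjusted p = 0.110), N22 N+W+ (-2.73, adjusted p = 0.0747) or N22 N-W+ (-2.24, adjusted p = 0.103). The low nitrogen call was lost without IR64 N+W+ (-1.71, adjusted p = 0.0572), IR64 N+W- (-1.78, adjusted p = 0.0597) or N22 N+W- (-1.70, adjusted p = 0.0518). The N-W- call was lost with library totals (-1.69, adjusted p = 0.0572) and without any of IR64 N+W+, IR64 N+W-, IR64 N-W-, N22 N+W+ or N22 N+W- (-2.23 to -1.77, adjusted p = 0.0695 to 0.186).

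In roots the libraries of OsMFS1 separated by nitrogen. N22 roots had 8.99 CPM at N-W+, 30.34 CPM at N+W- and 2.29 CPM at N-W-, against 30.32 CPM at N+W+. IR64 roots had 14.6 CPM at N-W+, 49.8 CPM at N+W- and 13.7 CPM at N-W-, against 18.4 CPM at N+W+. The low nitrogen roots (2.29 to 14.6 CPM) did not overlap the high nitrogen roots (18.4 to 49.8 CPM), yet the log2 difference of -1.84 ± 0.48 missed the threshold (adjusted p = 0.0738, and 0.00123 by DESeq2), and passed it without IR64 N+W+ (-2.30, adjusted p = 0.0365) or IR64 N-W- (-2.54, adjusted p = 0.0146).

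**Figure D3:**
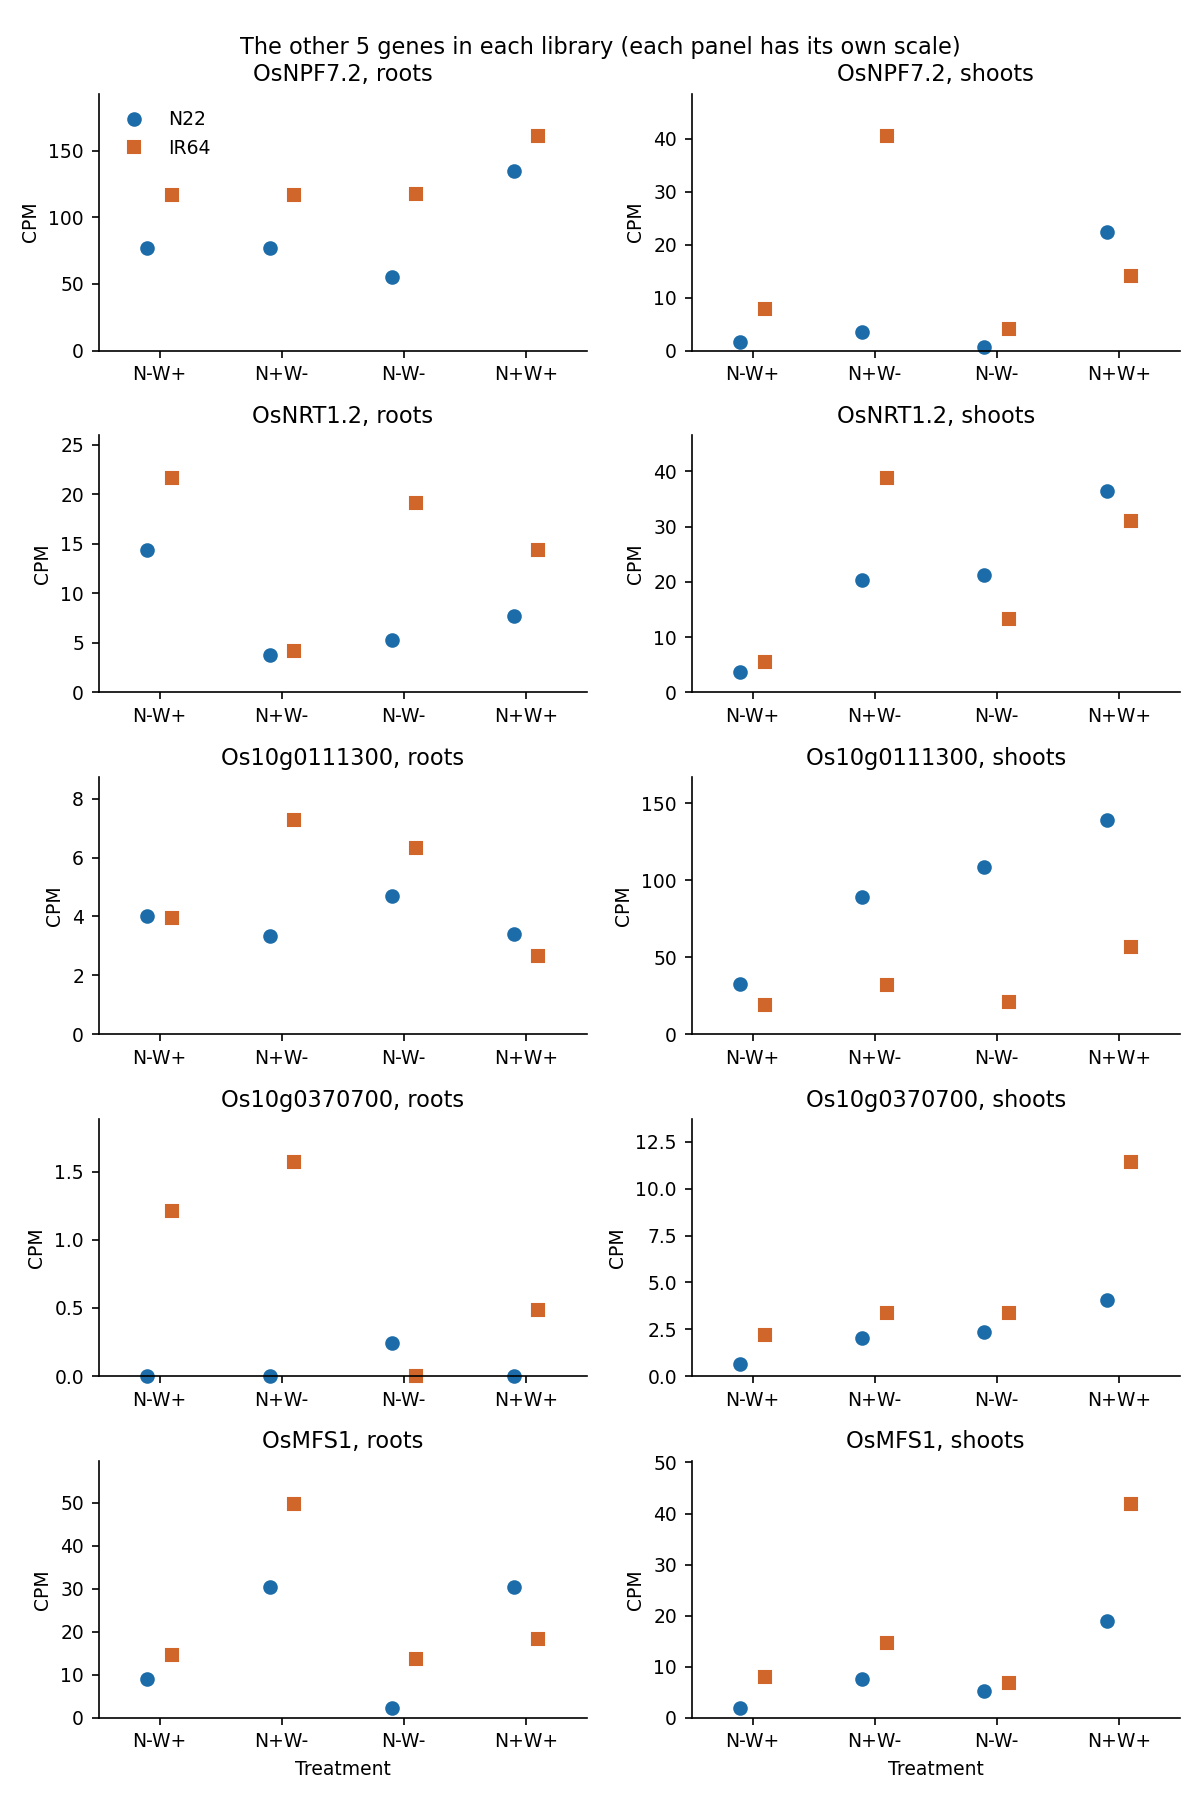
TMM-scaled CPM of OsNPF7.2, OsNRT1.2, Os10g0111300, Os10g0370700 and OsMFS1 in each library, roots left and shoots right, by treatment with the N+W+ control last, N22 as blue circles and IR64 as orange squares. Each panel has its own axis from 0. In shoots N-W+ was the lowest library of both genotypes for OsNRT1.2, Os10g0111300 and Os10g0370700, and in roots the low nitrogen points of OsMFS1 lay below the high nitrogen ones.

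Taking the 6 genes side by side, the joint test called 4 of 6 in shoots at N-W+, all lower, where 13% of all genes tested were called (1742 higher and 1233 lower of 22913), and 1 of 6 in roots, where 2.83% were called. At N-W- it called 1 of 6 in shoots (6.83% of all genes) and 1 of 6 in roots (1.62%). At low against high nitrogen 3 of 6 were called in shoots (18.2%) and 1 of 6 in roots (7.36%), all lower. The median log2 difference of the 6 genes at N-W+ was -2.55 in shoots and -0.14 in roots, against 0.00 and 0.04 over all genes, and at low against high nitrogen it was -1.44 in shoots and -0.38 in roots, against 0.01 and 0.02. All low nitrogen libraries lay below all high nitrogen libraries for 2 of 6 genes in roots (NRT1.1B and OsMFS1), as for 5.21% of all genes, and for 0 of 6 in shoots, where 7.42% of all genes did so. The 5 genes from the study's list make up all the shoot calls, and were listed for changes in these libraries. The difference of the nitrogen response between the tissues passed for 2 of 6 genes, OsNRT1.2 and NRT1.1B with opposite signs, against 5.91% of all genes. OsNRT1.2 was listed for its change in shoots of these libraries, so its count is no independent evidence of a difference between tissues. NRT1.1B is not on that list. Like all 6 genes it was chosen with earlier results of these data known, so its count is not independent either. OsNPF7.2 missed the threshold (2.24 ± 0.64, adjusted p = 0.0766, and 0.0140 by DESeq2).

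**Figure D4:**
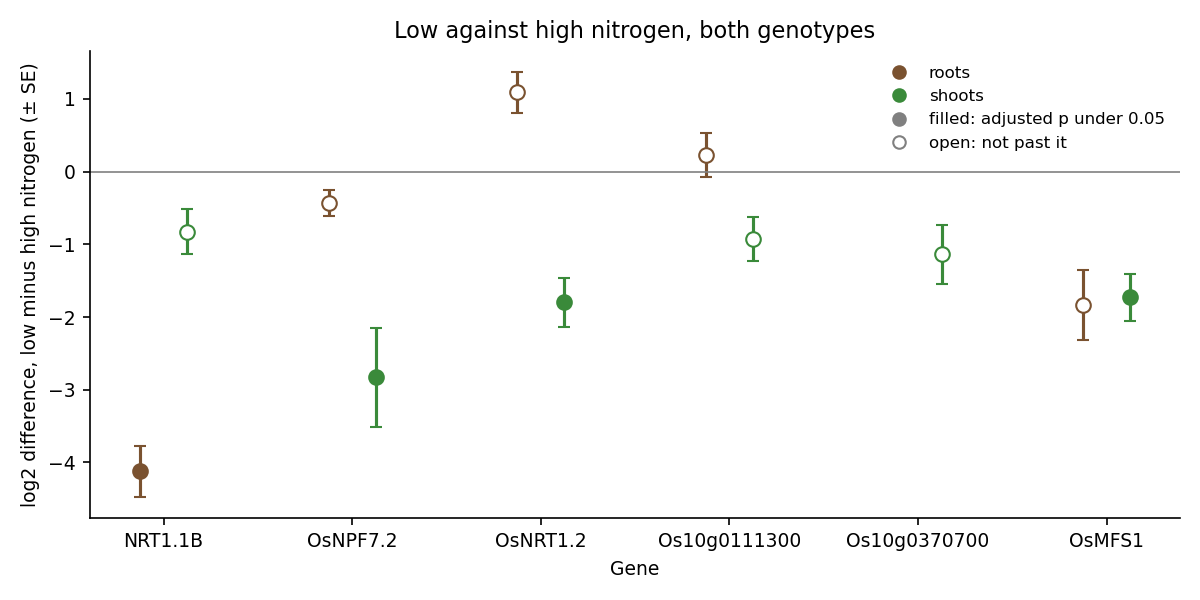
Log2 difference between low and high nitrogen (mean of both water levels, both genotypes) for each gene, with bars of 1 SE, roots in brown left of shoots in green, and filled points where the adjusted p was under 0.05. NRT1.1B in roots lay at -4.12 and OsNPF7.2, OsNRT1.2 and OsMFS1 in shoots between -2.83 and -1.73. Os10g0370700 is not drawn for roots, where it had at most 19 reads.

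Within 1 genotype a stress and its control are 1 library each, which allows no test. A log2 ratio beyond 2 in size was counted, with at least 1 CPM in either library, and the 95% intervals cover counting error only. At N-W+ 5 of 6 genes were beyond it on the lower side in N22 shoots, against 10.9% of all genes, and 3 of 6 in IR64 shoots, against 9.68%. NRT1.1B was the gene within it in N22 shoots (-0.60, interval -0.78 to -0.42). OsNPF7.2 showed the widest gap between the genotypes at N-W+, with -3.78 (-5.51 to -2.61) in N22 shoots and -0.84 (-1.39 to -0.32) in IR64 shoots. Os10g0111300 lay on either side of the threshold with -2.09 (-2.39 to -1.80) in N22 and -1.55 (-1.87 to -1.24) in IR64, which are neighbouring values. With library totals in place of TMM, 0 of 6 genes were beyond the threshold in IR64 shoots at N-W+ and at N-W-, where the share of all genes was not computed. At N-W- 1 of 6 genes was lower beyond it in N22 shoots (OsNPF7.2, -4.80, 5.01% of all genes) and 1 of 6 in IR64 shoots (OsMFS1, -2.60, 9.95%). At N+W- OsNPF7.2 was lower in N22 shoots (-2.68, 1 of 6 genes, 3.49%), whereas in IR64 shoots 0 of 6 were lower (4.47%) and NRT1.1B was higher (2.46, 1 of 6, 4.69%). In roots Os10g0370700 reached 1 CPM in neither library of any N22 contrast, nor of N-W- against N+W+ in IR64, which leaves 5 genes there. NRT1.1B was beyond the threshold at N-W+ in N22 roots (-4.43, 1 of 5 genes, 5.72%) and in IR64 roots (-4.18, 1 of 6, 5.2%). At N-W- NRT1.1B (-4.71) and OsMFS1 (-3.69) were beyond it in N22 roots (2 of 5, 4.1%) and NRT1.1B (-3.10) in IR64 roots (1 of 5, 4.24%). At N+W- 0 of 5 genes were lower beyond it in N22 roots (1.32%) and 0 of 6 in IR64 roots (3.51%).

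**Figure D5:**
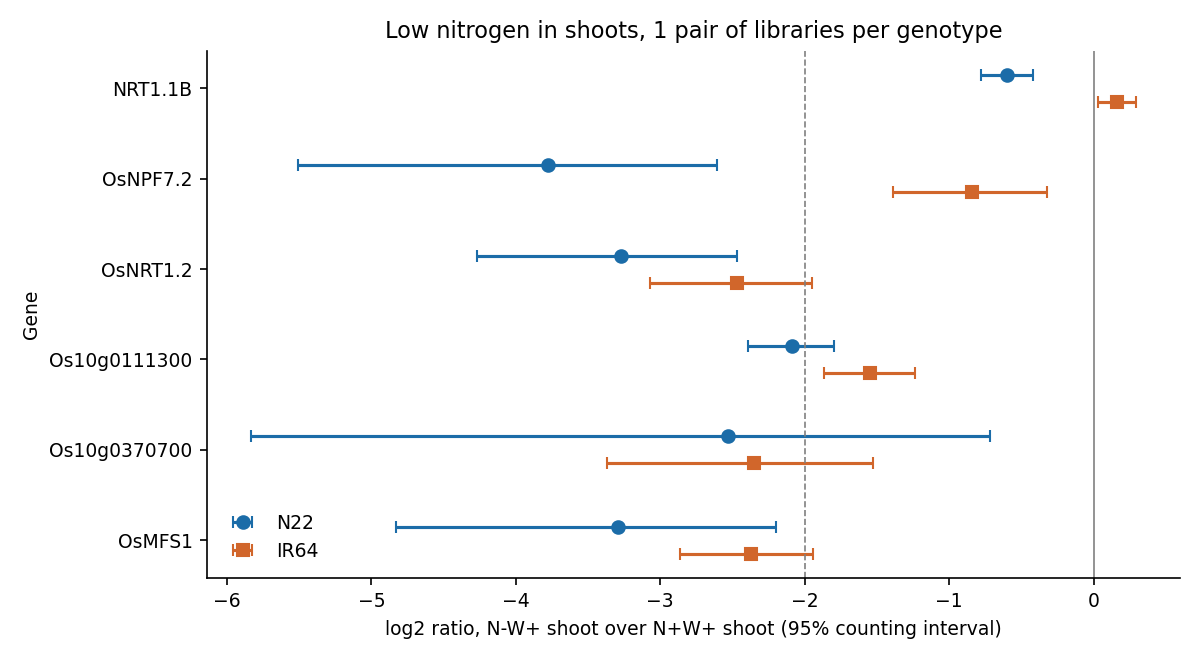
Log2 ratio of N-W+ over N+W+ shoots for each gene, with exact 95% intervals that cover counting error only, N22 as blue circles above IR64 as orange squares, and the threshold of -2 as a dashed line. In N22 shoots 5 genes lay below the line and in IR64 shoots 3, and the intervals of OsNPF7.2 did not overlap between the genotypes.

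Whether the genotypes differed in their stress response was tested by interaction terms in a fit with only 1 residual degree of freedom. For genotype by nitrogen 0 of 6 genes passed in roots or shoots, as did 0% of all genes in each tissue (512 and 1266 genes at an unadjusted p under 0.05), and for genotype by water likewise 0 of 6 and 0% of all genes in each tissue (373 and 1549 genes). For OsNPF7.2 in shoots, where N22 held 22 reads and IR64 373 reads at N+W-, the term for water was -2.63 ± 1.04 (adjusted p = 0.705) and that for nitrogen -0.97 ± 1.03 (adjusted p = 1). With library totals, unique exon reads or DESeq2 the adjusted p was 0.601 to 1 for the water term and 0.948 to 1 for the nitrogen term.

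The genotypes themselves, averaged over treatments, differed for 1 of 6 genes in shoots, against 6.62% of all genes. Os10g0111300 was higher in N22 than in IR64 shoots by 1.48 ± 0.31, 2.80-fold (adjusted p = 0.0338). N22 was the higher at every treatment, with 32.7 to 139 CPM in N22 and 19.3 to 56.4 CPM in IR64, and the gap was widest at N-W- (108 CPM in N22 and 21.0 CPM in IR64). The call was lost without the shoot libraries at N+W+ (1.55 without either), N+W- (1.48 without either) or N-W- (1.19 without N22 and 1.18 without IR64), with adjusted p of 0.0589 to 0.167. In roots 0 of 6 genes passed, against 14% of all genes. OsNPF7.2 came nearest there, with N22 lower at every treatment (-0.63 ± 0.19, adjusted p = 0.0591), and it passed with library totals (-0.68, adjusted p = 0.0450) and by DESeq2 (-0.63, adjusted p = 0.0134). In shoots its difference was -1.88 ± 0.74 (adjusted p = 0.191), and it passed without either N+W+ library (-2.87, adjusted p = 0.0206) and by DESeq2 (-2.03, adjusted p = 0.0287). NRT1.1B gave -0.37 ± 0.32 in roots and -0.80 ± 0.32 in shoots (adjusted p = 0.472 and 0.190), and OsMFS1 -1.08 ± 0.32 in shoots (adjusted p = 0.0994, and 0.0397 by DESeq2). Reads of both genotypes were mapped to a japonica reference, so a genotype difference can also carry a difference in mapping, which was not tested.

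Low water by itself left few calls in this design. At N+W- against N+W+ 0 of 6 genes passed in roots (0.00824% of all genes, 2 genes) and 0 of 6 in shoots (0%, with 2647 genes at an unadjusted p under 0.05), whereas DESeq2 called 345 genes in roots and 646 in shoots, NRT1.1B in shoots among them. At low against high water 0 of 6 passed in roots (0%, 1920 genes at an unadjusted p under 0.05) and 0 of 6 in shoots (0%, 1272 genes), and the difference of the water response between tissues passed for 0 of 6 (0%, 477 genes). OsNRT1.2 in roots had the lowest level at N+W- in both genotypes, a log2 difference from N+W+ of -1.40 ± 0.41 (adjusted p = 0.440). The combined stress was also set against the sum of the single stresses. No member departed from that sum by the test, 0 of 6 in roots (0.00412% of all genes, 1 gene) and 0 of 6 in shoots (0%, 2140 genes at an unadjusted p under 0.05). In shoots the departures were 2.12 ± 0.67 for OsNRT1.2, 1.91 ± 0.65 for OsMFS1, 1.70 ± 0.61 for Os10g0111300 and 2.53 ± 0.80 for Os10g0370700 (adjusted p = 0.509 to 0.510), and -0.19 ± 1.39 for OsNPF7.2 and -1.09 ± 0.63 for NRT1.1B (adjusted p = 0.981 and 0.592). A low value at N-W+ enters this measure as a positive departure, so the sign for the 4 genes called at N-W+ is no separate result.

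The files name 21 other genes of the family by symbol, of which 18 could be tested in each tissue. At low against high nitrogen 1 of them rose and 0 fell in roots, where 7.36% of all genes were called, with a median log2 difference of -0.20 against 0.02 over all genes, and 3 rose and 4 fell in shoots, where 18.2% of all genes were called, with a median of 0.13 against 0.01. OsNRT1.3A rose in roots by 1.28 ± 0.22 (adjusted p = 0.0143). In shoots OsNRT1.1C (3.88 ± 1.00, adjusted p = 0.0434, with 263 reads in all libraries), SP1, a peptide transporter family gene known for panicle size (1.17 ± 0.28, adjusted p = 0.0297), and OsNPF2.4, a nitrate transporter of root and xylem (0.98 ± 0.25, adjusted p = 0.0371), rose. OsNRT1.4 fell there by 2.29 ± 0.47 (adjusted p = 0.0183), OsPTR3_2 by 1.79 ± 0.28 (adjusted p = 0.00797) and OsPTR3_1 by 1.26 ± 0.25 (adjusted p = 0.0173). OsNRT1.1C held 0 reads in the N+W+ shoots of both genotypes. In N22 shoots it had 7.71 CPM at N-W+, 2.97 CPM at N+W- and 1.40 CPM at N-W-. In IR64 shoots these were 2.68, 5.96 and 4.94 CPM. Its N-W- against N+W- difference was -0.55 ± 0.85, so the rise was not seen at low water. Of their exon reads, 17.9% were unique for OsNRT1.1C, 37.3% for OsNRT1.3A and 37.9% for OsNPF2.4, so their values are uncertain too. Between tissues 16 of the 21 other family genes could be tested, of which 4 were higher and 5 lower in roots, against 43.4% of all genes called.

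The genes whose pattern came nearest to each member were listed by Pearson correlation of log2 CPM over the 8 libraries of 1 tissue, as a description. That tissue was the one with the higher mean CPM of the member, scaled within each tissue. NRT1.1B, OsMFS1 and OsNRT1.2 had not passed the test between tissues. Libraries of a tissue share treatments and genotype, and the best of many genes is high by selection. For NRT1.1B in roots they were Os04g0652700 (0.998), Os08g0299400 (0.996) and OsPR1#101 (0.995). For OsMFS1 in roots they were Os07g0236800 (0.985), Os01g0960800 (0.967) and OsRLCK310 (0.964), and for OsNPF7.2 in roots Os08g0203100 (0.972), OsUCL33 (0.969) and OsTPS5_2 (0.966). In shoots Os10g0111300 was nearest to OsIAA25 (0.990), OsCML8 (0.987) and WSL (0.983), OsNRT1.2 to OsSET36 (0.985), Os11g0620100 (0.984) and Os02g0624100 (0.982), and Os10g0370700 to Os02g0803300 (0.994), Os01g0235100 (0.958) and CLPC2 (0.957).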

How the data were processed

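RNA-seq counts, TPM and RPKM per gene were deposited for 16 libraries. Per the study's methods, the authors trimmed reads with sickle (Phred score 30, length 36), mapped them in CLC Genomics Workbench version 12 (mismatch cost 2, length fraction 0.5, similarity fraction 0.8). The deposited files hold the authors' total and unique exon read counts, total gene reads, and the normalized TPM and RPKM. The submitters' processing notes name the build IRGSP-1.0 and CASAVA. How reads that map to several places were assigned is not given in the sources used here.

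Here the deposited total exon read counts were scaled by TMM and tested with edgeR 4.0.16 (R 4.3.3, robust quasi-likelihood fit, filterByExpr, Benjamini-Hochberg adjustment, threshold 0.05). Within a tissue the model was genotype plus treatment (8 libraries, 3 residual degrees of freedom), so the test measures how far both genotypes share a response, and a p-value covers the spread between these pooled libraries and not between plants. Roots and shoots were compared with genotype by treatment as the block (7 residual degrees of freedom). Interaction terms had 1 residual degree of freedom for genotype and 4 for tissue. Ratios within a genotype used a prior count of 0.5 and exact 95% intervals, which cover counting error only. DESeq2 1.42.0, library totals, DESeq2 size factors, no filter, unique exon reads, total gene reads, leaving out each library, prior count 2, minimum of 5 CPM or none, and log2(RPKM + 1) were tried as alternatives. Deposited TPM served to compare levels between genes, to give their ranges in roots and shoots, and for the marker sums by tissue and nitrogen. It was used without TMM scaling. Scripts were tested on simulated data.

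The 6 genes and the lists were chosen with earlier results of these data known. All 6 members are named, and of the other family genes called at low nitrogen those with the 3 largest rises and 3 largest falls per tissue. The 3 genes most like each member were listed from log2 CPM with a prior count of 2. Sequences were not used here. Figures were drawn with Python 3.11.15 and matplotlib 3.10.9.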

Additional observations from a re-analysis of the deposited data

Results flagged for a closer look

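The response to low nitrogen differed between roots and shoots by its own edgeR test for NRT1.1B, with a difference of -3.27 ± 0.55 on the log2 scale (adjusted p = 0.0163), and for OsNRT1.2, with 2.99 ± 0.63 (adjusted p = 0.0331). NRT1.1B was lower at low nitrogen mainly in roots (-4.12 in roots and -0.83 in shoots), and OsNRT1.2 was lower in shoots and not in roots (1.09 in roots and -1.80 in shoots). Under library totals, DESeq2 and unique exon reads both stayed called, at -3.89 to -3.34 for NRT1.1B and 2.35 to 2.92 for OsNRT1.2, and 12.2% of the OsNRT1.2 reads were unique to it. Leaving out single libraries was not tried for this test, so its dependence on any of them is not known. OsNRT1.2 stands in the study's list for a change in shoots of these libraries, so its difference is not independent evidence. NRT1.1B too was chosen with earlier results of these data known.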

How the results depend on the processing

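No paired analysis was possible because each group has 1 library, so that there are no replicate numbers to pair beyond the genotype term, and the genotype by treatment block between tissues, that the fits already hold. The count of genes called was sensitive to the tool and to single libraries. DESeq2 called 1806 genes in roots at N-W+, 345 at N+W-, 1222 at N-W- and 2936 at low nitrogen, and in shoots 5050 at N-W+, 646 at N+W-, 3789 at N-W- and 3169 between N22 and IR64. At N+W- in roots 0 genes were called with library totals, 4 with no filter, 14 with unique exon reads and 0 with total gene reads, and unique exon reads gave 636 at N-W- in roots. With each library left out in turn, root counts ranged over 52 to 906 at N-W+, 0 to 6 at N+W-, 20 to 452 at N-W-, 609 to 1499 at low nitrogen and 1496 to 3441 between genotypes, and shoot counts over 0 to 4502 at N-W+, 0 to 2952 at N-W-, 1328 to 5587 at low nitrogen and 694 to 1315 between genotypes. The lone library of a thinned treatment is then assumed to vary like the others.

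Of the 6 genes, those beyond the fold threshold numbered 0 in IR64 shoots at N-W+ and 0 at N-W- with library totals, 2 in IR64 roots at N-W- with no minimum level, and 2 in IR64 shoots at N+W- and 2 in N22 shoots at N-W- with unique exon reads. On log2(RPKM + 1), which understates low genes, they numbered 1 in N22 roots at N-W-, 0 in IR64 shoots at N-W+ and 0 at N-W-, and in N22 shoots 1 at N-W+, 0 at N+W- and 0 at N-W-. The share of all genes beyond the threshold was not computed under these settings, so these counts have no background. With library totals the sign turned for NRT1.1B in shoots at N-W+ (0.23) and for OsNRT1.2 between N22 and IR64 shoots (0.17). Leaving out 1 library turned the sign of differences that had not passed the test. In roots they ranged over -0.01 to 0.85 for Os10g0111300 at N-W+, -0.23 to 1.71 for OsMFS1 and -0.37 to 0.52 for NRT1.1B at N+W-, -0.72 to 0.56 for OsNRT1.2 at N-W- and -0.61 to 0.02 for NRT1.1B between genotypes. In shoots they ranged over -0.80 to 0.34 for NRT1.1B at N-W+, -0.21 to 0.93 for NRT1.1B at N-W-, -2.28 to 1.26 for OsNPF7.2 and -0.79 to 0.31 for OsNRT1.2 at N+W-, and -0.41 to 0.18 for OsNRT1.2 between genotypes, and NRT1.1B between roots and shoots over -0.70 to 0.02. The cause of these changes was not tested. Depth limits Os10g0370700, OsNPF7.2, OsMFS1 and OsNRT1.2 in shoots, with as few as 2, 5, 6 and 12 reads in N22 at N-W+.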
